A study of Mus musculus with 4 samples.

Results

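Receptors for the glucagon and vasoactive intestinal peptide (VIP) families were followed across microarrays of mouse gastric corpus, the acid-secreting part of the stomach. The set held 8 genes, Glp1r, Glp2r, Gipr, Gcgr, Vipr1, Vipr2, Adcyap1r1 and Sctr, of 22180 genes with a probe set annotated to exactly 1 gene. Each of the 8 had 1 such probe set, so no choice among probe sets was needed. The set was chosen by the values of Glp1r and Vipr2 on these arrays, both among the most different genes, together with the family they belong to, so differences between arrays are given here as descriptions and none is tested. Mice lacking both catalytic subunits of AMP-activated protein kinase in parietal cells (AmpkKO in the labels, KO here: Atp4b-cre, Prkaa1fl/fl, Prkaa2fl/fl, on a mixed background from B6/FVB cre mice and B6 floxed mice) received metformin at 300 mg/kg or saline. Wild-type (WT) C57BL/6 mice received the same metformin dose or saline. All mice were adults of 8 to 10 weeks, and injections were intraperitoneal, daily, for 14 days. Each of the 4 groups (KO metformin, KO vehicle, WT metformin and WT vehicle) was measured on 1 array, so there is no replicate error, and the sources used here do not say how many animals stood behind an array. Cre is driven by the promoter of the proton pump subunit gene Atp4b, so other corpus cells keep AMPK, and genotype and strain background cannot be told apart.

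The 8 genes encode class B G protein-coupled receptors, which bind peptide hormones or neuropeptides through a large extracellular domain. Most of them couple to the stimulatory G protein Gs, which activates adenylyl cyclase and raises cyclic AMP. Cyclic AMP in turn activates protein kinase A and, through the factor CREB and its CRTC coactivators, transcription. In the stomach these peptides act on acid secretion, motility and endocrine cells: VIP and PACAP are transmitters of enteric nerves, PACAP releases histamine from enterochromaffin-like cells in rat, and secretin inhibits acid secretion. The incretins, glucagon-like peptide 1 and GIP, are released from the intestine after meals and raise insulin secretion.

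The promoter windows of Glp1r, Vipr2 and Adcyap1r1 are shown because these were the receptors with at least 2-fold lower values on the KO vehicle array than on the WT vehicle array, as were 4.55% of all 22180 genes. They are windows of 300 bases around the gene start from RefSeq (GRCm38.p6), printed 5′ to 3′, and the capitals mark the GC box letters GGGCGG on either strand.
Glp1r, chr17:30901617-30901916 (+ strand): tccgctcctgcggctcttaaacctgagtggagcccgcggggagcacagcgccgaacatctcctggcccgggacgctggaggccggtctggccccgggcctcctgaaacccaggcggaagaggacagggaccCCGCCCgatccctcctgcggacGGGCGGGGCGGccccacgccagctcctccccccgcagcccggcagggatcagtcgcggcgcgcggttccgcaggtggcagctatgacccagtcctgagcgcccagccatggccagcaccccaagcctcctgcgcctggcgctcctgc
Vipr2, chr12:116077476-116077775 (+ strand): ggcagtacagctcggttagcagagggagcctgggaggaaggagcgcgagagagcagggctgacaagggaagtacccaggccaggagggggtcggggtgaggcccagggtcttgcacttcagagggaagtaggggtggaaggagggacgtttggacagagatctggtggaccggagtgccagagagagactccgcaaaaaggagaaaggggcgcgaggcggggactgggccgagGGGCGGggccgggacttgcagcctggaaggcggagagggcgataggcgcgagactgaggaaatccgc
Adcyap1r1, chr6:55451728-55452027 (+ strand): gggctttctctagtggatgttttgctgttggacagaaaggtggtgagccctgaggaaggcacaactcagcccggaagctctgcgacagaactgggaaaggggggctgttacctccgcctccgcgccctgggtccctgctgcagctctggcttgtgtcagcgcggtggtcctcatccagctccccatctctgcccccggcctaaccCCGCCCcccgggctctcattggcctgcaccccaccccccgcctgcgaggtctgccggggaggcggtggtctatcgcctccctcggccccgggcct

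RefSeq promoter windows were found for 6 of the 8 receptors. The Glp1r window held 3 GC box matches, 2 of which share a base, and the Vipr2 and Adcyap1r1 windows held 1 each. Outside these 3, Vipr1 had 4 matches, Gcgr 2 and Glp2r 0, and 35.7% of 32851 promoter windows of the same length held at least 1. The share of G and C was 73.7% for Glp1r, 65.3% for Vipr2 and 67.3% for Adcyap1r1, against a median of 52.7% over all windows. It was also high for Vipr1 (73.7%) and Gcgr (71.7%), and 51.3% for Glp2r, so it did not set these 3 apart. The cyclic AMP response element TGACGTCA and its shorter form TGACG were searched on both strands, where any full match also holds the shorter form. Neither was found in the windows of Glp1r, Vipr2 or Adcyap1r1, and of the 6 windows Vipr1 alone held the shorter form, once. The full element was present in 1.79% and the shorter form in 20.8% of all windows. The E-box CACGTG (7.15% of all windows) and the TATA letters TATAAA (13.6%) were in none of the 6, and CCAAT (37.4%) was in those of Adcyap1r1 and Vipr1. These are matches of letters within a window and say nothing about binding.

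The values are log2 expression after robust multi-array averaging (RMA), and a difference of 1 is a 2-fold difference. The labelled tissue carried its markers on every array: the proton pump gene Atp4a had 12.94 on the KO metformin, 12.80 on the KO vehicle, 12.97 on the WT metformin and 13.22 on the WT vehicle array. The targeted gene Prkaa1 had 8.66 (KO metformin), 8.18 (KO vehicle), 8.90 (WT metformin) and 9.46 (WT vehicle), and Prkaa2 had 7.52 (KO metformin), 7.19 (KO vehicle), 8.02 (WT metformin) and 8.90 (WT vehicle). Both were lowest on the KO vehicle array, in whole corpus RNA where non-parietal cells contribute too, and the sources used here do not place the probes relative to the floxed exons. Small nucleolar RNAs (80 genes) had medians of 6.55 (KO metformin), 6.92 (KO vehicle), 7.19 (WT metformin) and 6.26 (WT vehicle), so their median was lowest on the WT vehicle array.

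Glp1r, the receptor for glucagon-like peptide 1, had a value of 11.40 on the KO metformin array, 8.65 on the KO vehicle array, 10.28 on the WT metformin array and 11.40 on the WT vehicle array. The KO vehicle array stands lowest, the KO metformin and WT vehicle arrays lie at the same level to 2 decimals, and WT metformin lies between. Metformin was accompanied by a 6.75-fold higher value in KO (log2 difference 2.75) and a 2.18-fold lower value in WT (-1.13). The KO response minus the WT response was 3.88 for Glp1r, the second highest of 22180 genes. Under vehicle, Glp1r was 6.75-fold lower in KO than in WT (-2.75), and under metformin it was 2.18-fold higher in KO than in WT (1.13). The KO response and the vehicle comparison share the KO vehicle array, so these values are not separate observations. The range over the 4 arrays was 2.75, and 0.144% of genes had a range as large or larger. In whole-tissue RNA, fewer cells of a type and less RNA per cell cannot be told apart.

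Vipr2 encodes VPAC2, a receptor for VIP and PACAP known from smooth muscle and from the circadian pacemaker of the brain. Its values were 6.62 on the KO metformin array, 6.10 on the KO vehicle array, 6.94 on the WT metformin array and 8.68 on the WT vehicle array. WT vehicle stood apart at the top, and the other arrays lay within 1 log2 unit of each other. With metformin Vipr2 was 1.43-fold higher in KO (0.52) and 3.33-fold lower in WT (-1.74, the third lowest of all genes in that comparison). Under vehicle it was 5.95-fold lower in KO than in WT (-2.57), and under metformin the genotypes differed by -0.32. Its WT response and its vehicle comparison share the WT vehicle array.

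Adcyap1r1 encodes PAC1, the receptor that prefers PACAP over VIP. It had 5.97 on the KO metformin array, 5.70 on the KO vehicle array, 7.11 on the WT metformin array and 7.79 on the WT vehicle array. Both KO arrays lay under both WT arrays, and the share of all genes with this arrangement was not counted. It was the only one of the 8 that was at least 2-fold lower in KO under both treatments, with differences of -1.14 under metformin (2.20-fold) and -2.09 under vehicle (4.26-fold). The metformin differences were 0.27 in KO and -0.68 in WT. Vipr2 and Adcyap1r1 had the same order of arrays, with WT vehicle highest, then WT metformin, KO metformin and KO vehicle. The Euclidean distance between their profiles over the 4 arrays, each centred on its own mean, was 0.79 log2 units, against 1.76 between Glp1r and Vipr2 and 1.95 between Glp1r and Adcyap1r1.

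Sctr, the secretin receptor, had a mean over the level of the median gene. Its values were 8.41 on the KO metformin array, 7.72 on the KO vehicle array, 7.93 on the WT metformin array and 7.72 on the WT vehicle array. KO metformin was highest, by 0.70 over KO vehicle (1.62-fold) and by 0.48 over WT metformin. The KO vehicle and WT vehicle values of Sctr were equal to all deposited digits, as they were for 45 of the 22180 genes. No difference of Sctr reached 2-fold, and its range over the arrays was 0.70, which 27.9% of genes equalled or passed.

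**Figure D1:**
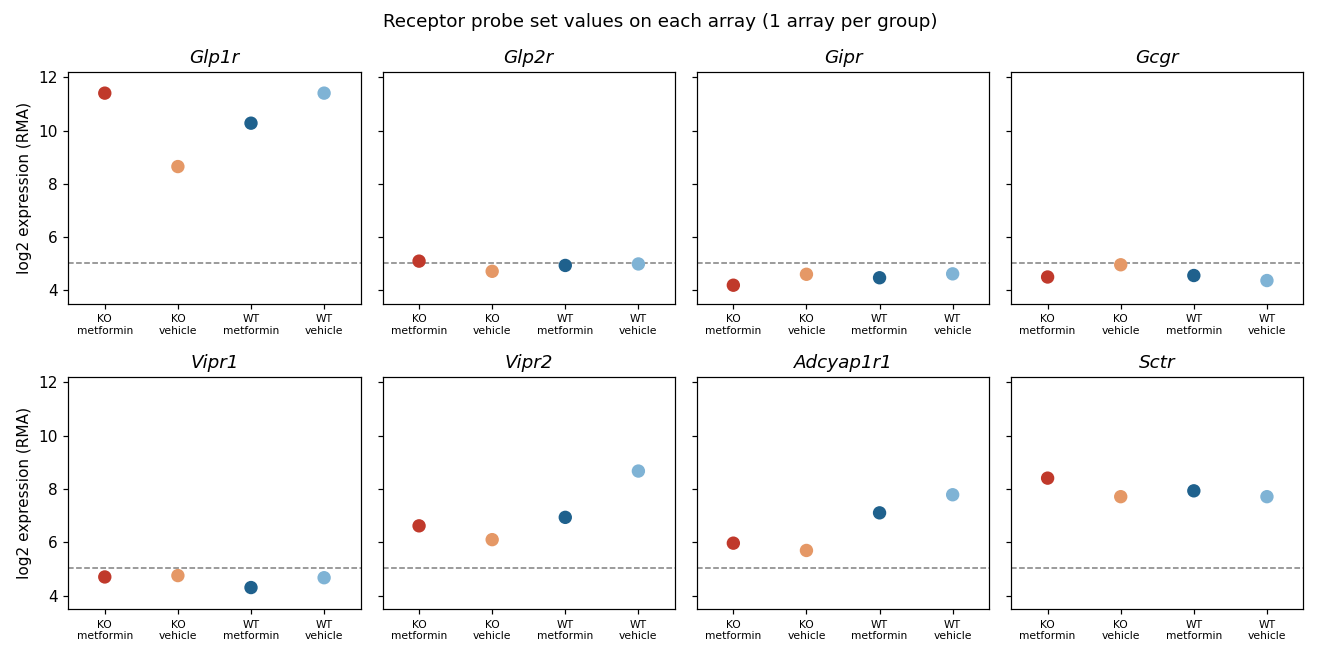
Log2 expression (vertical axis) of each of the 8 receptors on the KO metformin, KO vehicle, WT metformin and WT vehicle arrays, 1 point per array. The dashed line is the median over all genes of the mean level (5.03). Glp1r is lowest on the KO vehicle array (8.65), Vipr2 is highest on the WT vehicle array (8.68), and 4 receptors lie near or under the dashed line on every array; levels of different receptors come from different probes and are not comparable.

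The remaining 4 receptors had mean values under 5.03, the median over all genes, and no 2-fold difference in any comparison. Glp2r, the receptor for the intestinal growth peptide GLP-2, had 5.10 on the KO metformin array, 4.72 on the KO vehicle array, 4.94 on the WT metformin array and 4.99 on the WT vehicle array. Gipr, the second incretin receptor, had 4.20 (KO metformin), 4.61 (KO vehicle), 4.48 (WT metformin) and 4.62 (WT vehicle). KO vehicle was lowest for Glp2r and KO metformin for Gipr, both by less than 0.5. Gcgr, the glucagon receptor of liver, had 4.51 (KO metformin), 4.96 (KO vehicle), 4.56 (WT metformin) and 4.37 (WT vehicle). Vipr1, which encodes the epithelial VIP receptor VPAC1, had 4.70 (KO metformin), 4.75 (KO vehicle), 4.31 (WT metformin) and 4.67 (WT vehicle). The ranges of these 4 receptors over the arrays were between 0.38 (Glp2r) and 0.59 (Gcgr), and at least 39.1% of all genes had a range as large. The sources used here give no background level for these probe sets, and their differences are not read as folds. Glp1r was thus the only one of the pair of incretin receptors with a value over 5.03 on any array.

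Counted over all 8 receptors with no filter, 1 passed 2-fold on the KO metformin against the KO vehicle array (Glp1r, higher), where 2.51% of 22180 genes passed 2-fold in either direction and 1.53% were higher. In WT with metformin, 0 were higher and 2 lower (Glp1r and Vipr2), where 1.34% of genes passed and 0.676% were lower. Under metformin, KO against WT had 1 higher (Glp1r) and 1 lower (Adcyap1r1), where 0.974% of genes passed, 0.631% higher and 0.343% lower. Under vehicle, KO against WT had 0 higher and 3 lower (Glp1r, Vipr2 and Adcyap1r1), where 7.24% of genes passed and 4.55% were lower. For the KO response minus the WT response, 2 receptors passed 2-fold, both positive (Glp1r and Vipr2), where 11.8% of genes passed and 6.56% were positive. Nothing is read from these counts beside those shares, since the set was chosen with these differences known. The median difference of the 8 receptors was 0.33 for the KO response, -0.26 for the WT response, 0.05 for KO against WT under metformin and -0.15 under vehicle, against medians over all genes of -0.02 for the KO response, -0.01 for the WT response, 0.00 under metformin and 0.03 under vehicle. Of the 8 receptors, 4 had a mean at or above 5.03. Among the 11090 genes at or above that level the share past 2-fold was 3.06% for the KO response, 1.7% for the WT response, 0.92% for KO against WT under metformin, 10.4% under vehicle and 14.8% for the KO response minus the WT response.

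**Figure D2:**
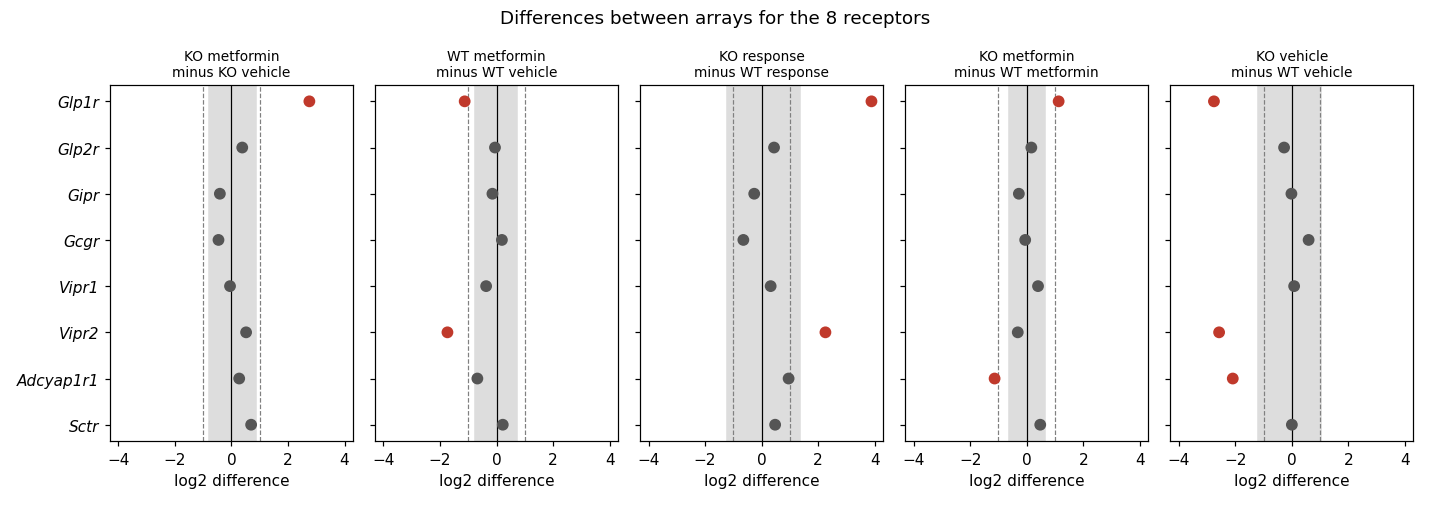
Log2 differences (horizontal axis) of the 8 receptors in 5 comparisons, with red points at or past 2-fold (dashed lines) and the grey band holding the central 95% of all 22180 genes. Glp1r lies outside the band in every panel, with 2.75 in the KO response and -2.75 in KO against WT under vehicle, while Glp2r, Gipr, Gcgr, Vipr1 and Sctr lie under 2-fold throughout.

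The peptide ligands were not at least 2-fold different in any of the 4 comparisons between arrays. For the KO response minus the WT response, Vip was -1.27, where 11.8% of all genes passed 2-fold in either direction. Gcg, which encodes glucagon and both glucagon-like peptides, had 6.22 on the KO metformin array, 6.12 on the KO vehicle array, 6.25 on the WT metformin array and 6.47 on the WT vehicle array, a narrow range beside that of Glp1r. Vip had 5.37 (KO metformin), 5.88 (KO vehicle), 6.33 (WT metformin) and 5.57 (WT vehicle), so it was highest on the WT metformin array, with differences of -0.51 for the KO response and 0.76 for the WT response. Gip had 5.91 (KO metformin), 6.27 (KO vehicle), 5.74 (WT metformin) and 5.45 (WT vehicle). Sct, the secretin gene, had 4.94 (KO metformin), 5.60 (KO vehicle), 5.29 (WT metformin) and 5.12 (WT vehicle). Adcyap1, the PACAP gene, was between 3.69 and 3.91 on all arrays. The list median was -0.36 for the KO response, 0.17 for the WT response, -0.06 for KO against WT under metformin and 0.31 under vehicle.

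Among 7 other class B receptors, Calcrl, which forms the receptors for CGRP and adrenomedullin, was the only one at least 2-fold different. It had 6.68 on the KO metformin array, 6.60 on the KO vehicle array, 7.27 on the WT metformin array and 7.71 on the WT vehicle array. Both KO arrays lay under both WT arrays, as for Vipr2 and Adcyap1r1, and the share of all genes with this arrangement was not counted. The vehicle difference was -1.11, and 4.55% of all genes were at least 2-fold lower there. The other 6 were the growth hormone-releasing hormone receptor Ghrhr, the parathyroid hormone receptors Pth1r and Pth2r, the calcitonin receptor Calcr and the corticotropin-releasing hormone receptors Crhr1 and Crhr2. All 6 had means under 5.03. Their vehicle differences of KO from WT ran between -0.10 (Calcr) and 0.84 (Pth2r). The receptor activity modifying proteins, which partner with Calcrl and some other class B receptors, had no 2-fold difference, and their vehicle differences were -0.08 for Ramp1, 0.57 for Ramp2 and -0.29 for Ramp3.

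Genes between the receptors and CREB gave mixed values. Of 10 measured genes for Gs and adenylyl cyclases, 0 passed 2-fold in the 4 comparisons, and the vehicle differences of KO from WT ran between -0.74 (Adcy5) and 0.49 (Adcy7). The KO response of these 10 genes ran between -0.60 (Adcy7) and 0.69 (Adcy5), and the WT response between -0.54 (Adcy9) and 0.26 (Adcy8). Under metformin, KO minus WT ran between -0.26 (Adcy7) and 0.38 (Adcy6). Of 12 cyclic AMP effectors, 1 was at least 2-fold higher in KO with metformin (the CREB coactivator Crtc3, 1.04), as were 1.53% of all genes. Under vehicle 1 was at least 2-fold lower in KO than in WT (the protein kinase A catalytic subunit Prkaca, -1.16), as were 4.55% of all genes. Crtc3 had 7.19 on the KO metformin array, 6.15 on the KO vehicle array, 6.55 on the WT metformin array and 7.04 on the WT vehicle array. Prkaca had 7.99 (KO metformin), 7.26 (KO vehicle), 7.87 (WT metformin) and 8.42 (WT vehicle). The KO vehicle array was lowest for both, as it was for Glp1r, Vipr2 and Adcyap1r1. The list median was 0.23 for the KO response and -0.28 for the WT response. Its other ends were Rapgef3, the cyclic AMP sensor Epac1 (-0.57 in the KO response, 0.26 in the WT response and 0.68 in KO against WT under vehicle), Crtc1 (-0.72 in the WT response and 0.66 in KO against WT under metformin) and the regulatory subunit Prkar1b (-0.67 under metformin).

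CREB target genes, most of them early response genes known also to answer other signals, had mainly positive metformin differences in KO and mainly negative ones in WT. Per1, a clock gene, had 8.71 on the KO metformin array, 7.93 on the KO vehicle array, 7.48 on the WT metformin array and 8.67 on the WT vehicle array. Its KO metformin and WT vehicle values lay together at the top, as those of Glp1r did. Nr4a1, an orphan nuclear receptor, had 6.17 (KO metformin), 5.76 (KO vehicle), 5.89 (WT metformin) and 7.04 (WT vehicle), with WT vehicle alone at the top, as for Vipr2. Of 8 CREB targets, 7 had positive KO responses, none past 2-fold, from Junb (-0.15) to Nr4a3 (0.92), and the median was 0.63, against -0.02 over all genes and 0.11 over those at or above 5.03. In WT 6 of 8 had negative responses, 2 past 2-fold (Per1, -1.19 and Nr4a1, -1.15), with Pck1 highest (0.37), where 1.34% of all genes passed. The WT median of the list was -0.39, against -0.01 over all genes and -0.14 over those at or above 5.03, and 61.6% of all genes had opposite signs in the 2 responses. Under vehicle 2 were at least 2-fold lower in KO (Nr4a1, -1.28 and the kinase Sik1, -1.04), as were 4.55% of all genes, and Junb was highest (0.64). Under metformin Per1 was 1.23 higher in KO and Fos was the lowest at 0.03. For the KO response minus the WT response, 6 of the 8 targets were above 0 and 2 below. There 5 were at least 2-fold higher, as were 6.56% of all genes: Per1 (1.97), Sik1 (1.70), Nr4a1 (1.56), Nr4a3 (1.21) and Nr4a2 (1.21).

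**Figure D3:**
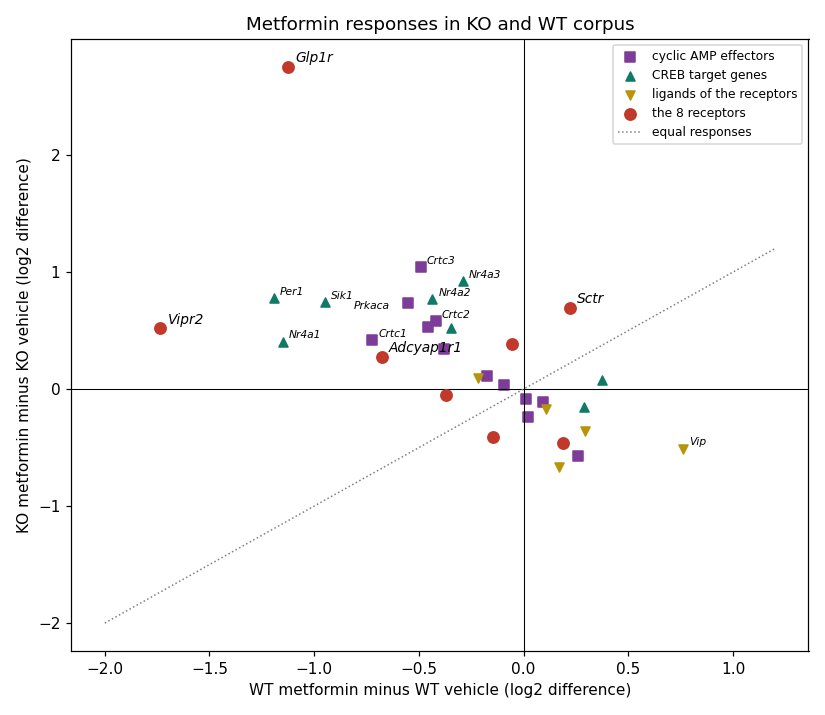
KO metformin response (vertical axis, log2 difference) against WT metformin response (horizontal axis, log2 difference) for the 8 receptors, the ligands, cyclic AMP effectors and CREB target genes. The axes use different arrays, and the dotted line marks equal responses. Glp1r lies at the upper left (2.75 in KO, -1.13 in WT), and Vipr2 is farthest to the left (0.52 in KO, -1.74 in WT).

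Genes that end the signal were next, with receptor kinases and arrestins under 2-fold and 1 of 2 peptidases past it. Of 5 measured receptor kinases and arrestins, 0 passed 2-fold, with vehicle differences of KO from WT between -0.23 (Grk5) and 0.65 (Arrb2). Their metformin differences ran between -0.35 (Grk3) and 0.47 (Grk6) in KO and between -0.10 (Grk3) and 0.26 (Grk5) in WT, and KO minus WT under metformin ran between -0.39 (Grk5) and 0.59 (Grk6). Dpp4, the peptidase that inactivates glucagon-like peptide 1 and GIP, had 4.09 on the KO metformin array, 3.62 on the KO vehicle array, 4.08 on the WT metformin array and 4.76 on the WT vehicle array. KO vehicle was lowest and WT vehicle highest, with a vehicle difference of -1.14, past 2-fold, from values that all lie under 5.03. Of all genes, 4.55% were at least 2-fold lower in that comparison. The KO response of Dpp4 minus its WT response was 1.15, where 6.56% of all genes were at least 2-fold higher. Mme, which encodes neprilysin, had 3.58 (KO metformin), 4.31 (KO vehicle), 3.98 (WT metformin) and 3.75 (WT vehicle).

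The genes with patterns most like Glp1r and Vipr2 were sought among 11089 other genes at or above 5.03, by Euclidean distance over the 4 arrays after each gene was centred on its mean. Nearest to Glp1r were the galectin Lgals12 (0.44), the vesicle tethering gene Vps33b (0.52), the molybdenum cofactor gene Mocs1 (0.53), the signalling adaptor Dapp1 (0.53) and the ubiquinone synthesis gene Coq5 (0.57). All 5 were lowest on the KO vehicle array. Lgals12 had 10.65 on the KO metformin array, 8.20 on the KO vehicle array, 10.10 on the WT metformin array and 10.76 on the WT vehicle array. The KO responses of these 5 genes lay between 2.05 (Mocs1) and 2.44 (Lgals12), under the 2.75 of Glp1r, and their WT responses lay between -1.03 (Mocs1) and -0.66 (Lgals12). Glp1r had a higher centred value on the KO metformin array than any of its 5 nearest genes.

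Nearest to Vipr2 were the transcriptional repressor Bcl6 (0.33), Mospd1 (0.37), the zinc finger gene Zscan26 (0.38), Lrrc31 (0.46) and the glucosyltransferase Alg6 (0.49). Bcl6 had 5.40 on the KO metformin array, 4.84 on the KO vehicle array, 5.32 on the WT metformin array and 7.17 on the WT vehicle array. All 5 were highest on the WT vehicle array, with WT responses between -1.85 (Bcl6) and -1.35 (Mospd1) and KO responses between 0.31 (Mospd1) and 0.75 (Lrrc31). Both searches rest on 4 arrays, and with 1 array per group a likeness may come from a single array.

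**Figure D4:**
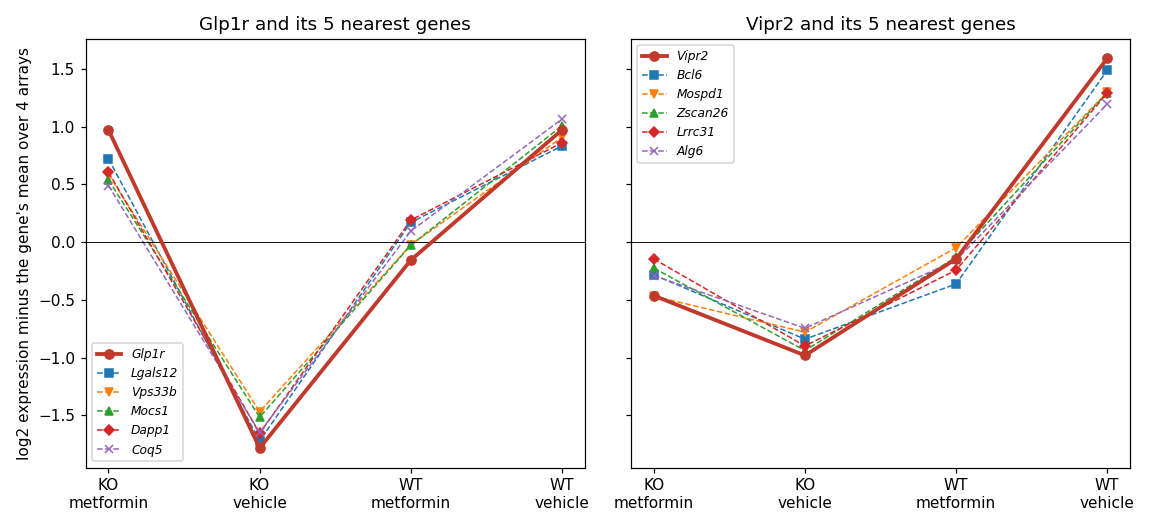
Log2 expression minus each gene's mean over the 4 arrays (vertical axis) for Glp1r and Vipr2 (thick red lines) and the 5 nearest genes of each (dashed lines) on the 4 arrays. Lines only join the points of 1 gene. The Glp1r group dips on the KO vehicle array and the Vipr2 group peaks on the WT vehicle array.

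Markers of cell types that carry such receptors differed between the same arrays. Smooth muscle genes (9 of 9 measured) were lower on the KO vehicle than on the WT vehicle array in 8 of 9 cases, 5 of them by at least 2-fold, with a median of -1.01, Cnn1 lowest (-1.47) and Tagln highest (0.25). The 5 were Cnn1, Des, Acta2, Smtn and Myocd. Of all genes, 4.55% were at least 2-fold lower in this comparison. Over genes with means at or above 5.03, as all 9 had, the median was -0.22. The log2 of the summed level of the smooth muscle genes was 13.50 on the KO metformin array, 12.94 on the KO vehicle array, 13.95 on the WT metformin array and 13.86 on the WT vehicle array. The smooth muscle sum was thus lower on both KO arrays than on both WT arrays, as were Vipr2 and Adcyap1r1. How many of all genes share this arrangement was not counted. This sum was not higher on WT vehicle than on WT metformin, whereas both receptors were. By single genes, 6 of 9 were higher with metformin in WT and 3 were lower (Acta2, Smtn and Myocd). Acta2 had 11.76 (KO metformin), 11.21 (KO vehicle), 12.25 (WT metformin) and 12.47 (WT vehicle). That is the array order of Vipr2 and Adcyap1r1, and Myocd had it too. With metformin in KO, Des (1.32) and Cnn1 (1.02) were at least 2-fold higher, as were 1.53% of all genes, and the list median was 0.54. The WT response of this list had a median of 0.18, from Smtn (-0.30) to Tagln (0.56), while that of Vipr2 was -1.74. Under metformin the list had a median of -0.45 in KO against WT, from Myocd (-0.65) to Smtn (0.22). The part of smooth muscle in the receptor values was not tested.

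Under vehicle, 8 of 8 endothelial genes were lower in KO than in WT (median -0.64), and 1 by at least 2-fold (Plvap, -1.64, with Emcn highest at -0.25). Of all genes, 4.55% were at least 2-fold lower there, and the median over genes at or above 5.03 was -0.22. The log2 of the summed endothelial level was 10.02 on the KO metformin array, 9.73 on the KO vehicle array, 10.22 on the WT metformin array and 10.48 on the WT vehicle array. This is the same order of arrays as Vipr2 and Adcyap1r1, and Calcrl, Prkaa1, Prkaa2 and the sum of the endocrine markers had it too. Plvap was also 1.03 higher in KO with metformin, where Flt1 was lowest (-0.01). In WT all 8 endothelial genes were lower with metformin, from Tek (-0.36) to Flt1 (-0.01), where the median over genes at or above 5.03 was -0.14. Of 9 measured genes of enteric neurons and glia, Snap25 (-1.40) and Ret (-1.08) were at least 2-fold lower and Tubb3 (1.22) at least 2-fold higher in KO under vehicle, and the list median was 0.19. In either direction, 7.24% of all genes passed 2-fold there. Snap25 was 1.29 higher in KO with metformin, where Sox10 was lowest (-0.46). The log2 sums of this list were 8.69 (KO metformin), 8.23 (KO vehicle), 8.82 (WT metformin) and 8.80 (WT vehicle). No marker gene of these lists was listed at 0, and their part in the receptor values was not tested.

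Parietal cell markers (10 of 10 measured, among them Cblif, which chief cells make in mouse) were lower in KO than in WT under vehicle in all 10 cases, with a median of -0.43, and 3 by at least 2-fold: the water channel Aqp4 (-1.54), the exchanger Slc9a4 (-1.44) and the chloride transporter Slc26a9 (-1.27). The highest was Cblif (-0.23). Of all genes, 4.55% were at least 2-fold lower in this comparison. Over genes with means at or above 5.03, as all 10 had, the median was -0.22. The log2 sums of the parietal markers were 14.98 on the KO metformin array, 14.73 on the KO vehicle array, 14.94 on the WT metformin array and 15.25 on the WT vehicle array. KO vehicle was lowest by this sum, as for Glp1r, over a narrower span than that of Glp1r. WT vehicle was highest by the sum, and the 2 metformin arrays lay close together (14.98 and 14.94). For Glp1r, KO metformin and WT vehicle were at the same level to 2 decimals, over WT metformin. The sum is weighted to the genes with the highest values. Slc9a4 had 10.29 (KO metformin), 9.36 (KO vehicle), 10.16 (WT metformin) and 10.80 (WT vehicle). Slc26a9 had 11.54 (KO metformin), 10.67 (KO vehicle), 11.47 (WT metformin) and 11.93 (WT vehicle). Both had the array order of Glp1r. Under metformin, 6 of the 10 markers were higher in KO than in WT and 4 were lower. The parietal list was 0.18 in the KO response (median), from Slc26a7 (-0.26) to Slc9a4 (0.93), and -0.51 in the WT response, from Aqp4 (-0.87) to Cblif (-0.17). Over genes at or above 5.03 the median was 0.11 in the KO response and -0.14 in the WT response. Endocrine cell markers had a median of -0.25 in KO against WT under vehicle, with Chga (-1.01) past 2-fold and Chgb highest (0.55), and the somatostatin gene Sst differed by 0.10. The log2 sums of the endocrine list were 13.32 (KO metformin), 13.25 (KO vehicle), 13.46 (WT metformin) and 13.62 (WT vehicle). In KO with metformin the endocrine list ran between -0.35 (Pax6) and 0.48 (Chga), and in WT between -0.60 (Slc18a2) and 0.27 (Chgb). The part of these markers in the values of Glp1r, Vipr2 and Adcyap1r1 was not tested.

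Markers of squamous epithelium, which lines the neighbouring forestomach, were high on the KO metformin array, where Glp1r was at its WT vehicle level. Of 8 measured, 5 were at least 2-fold higher in KO with metformin (Krtdap, Krt4, Krt10, Cnfn and Krt13), as were 1.53% of all genes. The 8 ran from Krt14 (-0.17) to Krtdap (4.69), with a median of 2.40. The log2 sums were 10.78 on the KO metformin array, 7.85 on the KO vehicle array, 7.55 on the WT metformin array and 7.15 on the WT vehicle array. The part of squamous tissue in the Glp1r values was not tested. Under vehicle Cnfn was just past 2-fold higher in KO, where 7.24% of all genes passed in either direction, and Krt4 was lowest (-0.13). T cell markers (7 of 8 measured), which cover the intraepithelial lymphocytes that carry Glp1r in mouse intestine, had means under 5.03 in all cases and no 2-fold difference. Their log2 sums were 6.91 (KO metformin), 6.96 (KO vehicle), 6.90 (WT metformin) and 6.53 (WT vehicle), with the WT vehicle array lowest. In KO with metformin they ran between -0.68 (Gzma) and 0.62 (Cd3e), in WT between -0.13 (Gzma) and 0.75 (Cd8a), and in KO against WT under vehicle between 0.09 (Itgae) and 0.85 (Gzma).

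Pancreas and duodenum markers (9 of 10 measured) were examined because Glp1r is abundant in islets and in duodenal Brunner's glands of mouse. The insulin gene Ins2 was between 2.40 and 2.59 on all arrays. Under vehicle the homeobox genes Cdx2 (1.41) and Pdx1 (1.10) were at least 2-fold higher in KO, and Cela1 was lowest (-0.48). Cdx2 and Pdx1 had values under 5.03 on every array, and 7.24% of all genes passed 2-fold in either direction in this comparison. The log2 sums of this list were 8.30 (KO metformin), 8.42 (KO vehicle), 8.53 (WT metformin) and 8.26 (WT vehicle). The part of these markers in the Glp1r values was not tested.

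**Figure D5:**
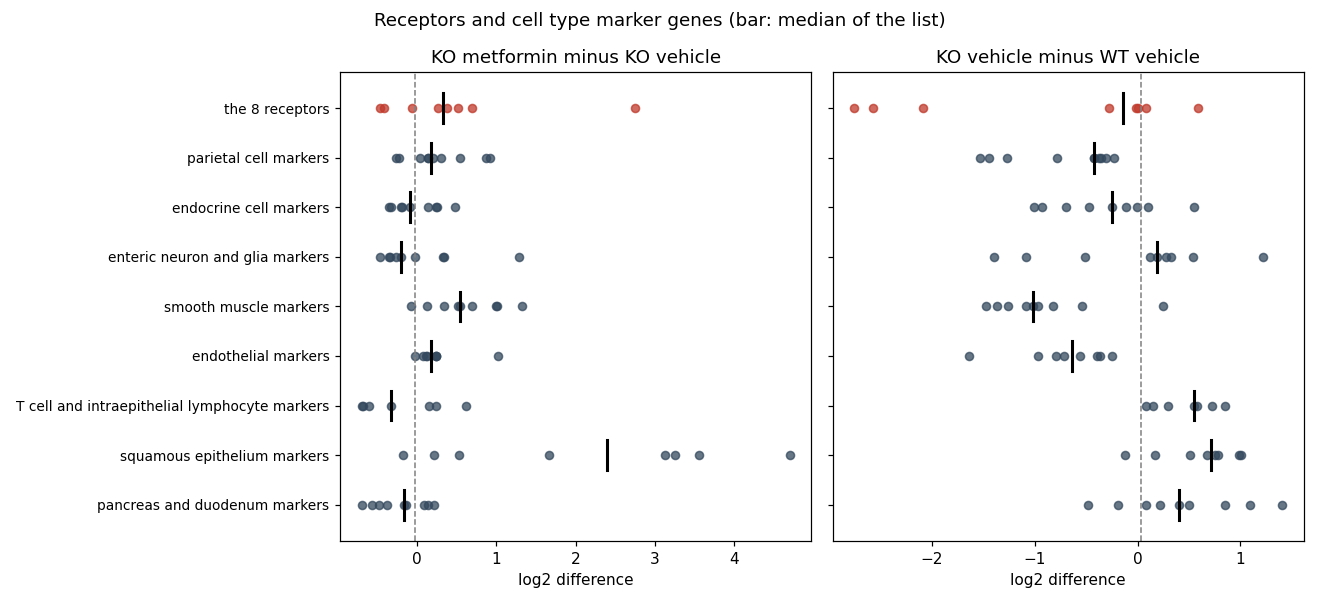
Log2 differences (horizontal axis) of the 8 receptors (red) and of marker genes of 8 cell types or tissues (dark) for KO metformin minus KO vehicle and KO vehicle minus WT vehicle, 1 point per gene. Black bars are list medians and the dashed line is the median of all genes. In the right panel 3 receptors lie under -2, below every marker gene, and in the left panel Glp1r (2.75) lies among the high squamous markers. The set was chosen by the values of Glp1r and Vipr2, so nothing is read from their place beside the markers.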

How the data were processed

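Total RNA of gastric corpus was turned into biotinylated cDNA for 4 Affymetrix arrays, per the labels' protocols. The log2 values were deposited by the authors after RMA, and Partek is also named, per the submitters' processing notes. The sources used here give no versions, settings or annotation build. Values between 0.774 and 14.02 fit a log2 scale. Precision is limited by the number of arrays.

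Of 41345 probe sets, the platform annotation gives 1 gene for 23521, several for 1814 and leaves 16010 unnamed here. Symbols were updated by gene identifier in RefSeq (GRCm38.p6), where 23328 matched. The highest-mean probe set stood for a gene (22180 genes). Receptors, lists and naming rule were chosen with earlier results of these data known. Of 130 list genes, 121 were measured. The named genes were the receptors, their ligands and other class B receptors with their partner proteins, in other lists those past 2-fold and both ends, and the 5 nearest patterns of Glp1r and Vipr2.

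No p-value was computed, since each group is 1 array. The difference step was tested on simulated data. Alternatives were cyclic loess (limma 3.58.1 in R 4.3.3), centring, the mean of probe sets, a filter at the median level, a 1.5-fold rule and, added after seeing the data, a lowess fit on gene span (fraction 0.3, statsmodels 0.14.6) subtracted from each array among protein-coding genes. Other steps used Python 3.11.15 with pandas 2.3.3 and numpy 2.4.6.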

Additional observations from a re-analysis of the deposited data

Results flagged for a closer look

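For 5 of the 8 receptors the metformin differences had opposite signs in KO and in WT, as they did for 61.6% of all 22180 genes. The count is near that share, so nothing is read from it. It also depends on processing. Glp2r in WT was -0.06 as deposited and 0.09 with the span trend removed. Vipr1 in KO was -0.05 as deposited, 0.05 with cyclic loess and 0.03 with centring. The KO response minus the WT response was 3.88 for Glp1r, 2.25 for Vipr2, 0.95 for Adcyap1r1, 0.44 for Glp2r and -0.65 for Gcgr. The KO and WT responses use separate arrays, 1 for each group, and the difference between them was not tested.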

How the results depend on the processing

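No paired analysis was possible because each group has 1 array. Of 120 receptor differences recomputed under cyclic loess, centring or removal of the trend on gene span, 119 stayed on their side of 2-fold, and the other was Adcyap1r1 in the KO response minus the WT response, which passed 2-fold after centring (1.11, against 0.95 as deposited). The largest shift was 0.28 with cyclic loess, 0.16 with centring and 0.24 with the span trend removed. The mean of probe sets could not move any, since each receptor has 1 probe set. With a 1.5-fold rule, which admits smaller differences, 2 receptors passed in the KO response (14.8% of all genes), 3 in the WT response (11.0%), 2 in KO against WT under metformin (6.37%), 4 under vehicle (26.5%) and 4 in the KO response minus the WT response (34.3%). Centring moved the median of all genes to -0.12 for KO against WT under vehicle (0.03 as deposited), and 81.5% of the differences past 2-fold were then lower (62.8% as deposited). After centring this share was 23.6% for the KO response (39.1% as deposited), 66.6% for the WT response (50.3%) and 24.3% for the KO response minus the WT response (44.6%). Leaving out a replicate was not possible with 1 array per group.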
